A study of Mus musculus with 6 samples.

Results

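The metabotropic glutamate receptor genes described here are Grm2, Grm3, Grm4, Grm5, Grm7 and Grm8. They were chosen as a gene family, by symbol, with earlier results of these data known. They make up 6 of the 54752 genes in the count tables, and all 6 passed the filter on low counts. An RNA-seq library was made from the entire right hippocampus of each of 3 sham and 3 BCAS animals. All mice were male wild-type C57BL/6 animals (C57BL/6 J in the methods), 14 weeks old by the labels, and tissue was taken 3 weeks after surgery. In the BCAS (bilateral carotid artery stenosis) group both common carotid arteries were wrapped in microcoils, the narrower one on the right, and the sham group underwent surgery without coils. The coils narrow arteries and target no cell type. The comparison asks how the RNA levels of these receptors differ in the hippocampus after chronic hypoperfusion.

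Metabotropic glutamate receptors are G protein-coupled receptors that tune synaptic transmission on a slower time scale than the glutamate-gated channels. Group I, which holds Grm5, couples to Gq and phospholipase C and sits mostly around the postsynaptic density of pyramidal cells. Group II (Grm2 and Grm3) and group III (Grm4, Grm7 and Grm8) couple to Gi/o, lower cAMP and mostly restrain transmitter release from presynaptic terminals, and Grm3 is also a receptor of astrocytes. The other two genes of the family are not analysed here.

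In the mm10 annotation used for counting, Grm5 (ENSMUSG00000049583.15) spans chr7:87584168-88134907 on the forward strand, with 10247 bases of merged exons. Grm7 (ENSMUSG00000056755.13) lies at chr6:110645581-111567230, also on the forward strand, with 5886 exonic bases. The other members are on the reverse strand. Grm2 (ENSMUSG00000023192.12) is at chr9:106643095-106656082 with 4894 exonic bases, and Grm3 (ENSMUSG00000003974.6) is at chr5:9485541-9725170 with 3049. Grm4 (ENSMUSG00000063239.17) is at chr17:27422387-27521403 with 5977 exonic bases, and Grm8 (ENSMUSG00000024211.15) is at chr6:27275119-28135178 with 9898. Strand was ignored in counting, so reads from an overlapping gene on either strand cannot be told apart from those of the receptor. Such overlap covered 9.60% of the exons of Grm2 (the antisense Gm28111, 0 to 6 counts per library), 2.21% of those of Grm7 (the antisense Gm20387, 25 to 89 counts) and 0.970% of those of Grm8 (Mir592 on the same strand, 0 counts in all 6 libraries).

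To show the DNA in front of members that fell and of one that did not pass the test, the 250 bases before the RefSeq transcript start of Grm3 and Grm7 (both lower in BCAS mice) and of Grm2 are printed 5′ to 3′, in genome build GRCm38.p6. Capitals mark the letters GGGCGG, the GC box bound by Sp-family factors. The windows are chr5:9725353-9725602 (reverse strand) for Grm3, chr6:110645262-110645511 (forward strand, the more upstream of 2 listed starts) for Grm7, and chr9:106656110-106656359 (reverse strand) for Grm2.
Grm3: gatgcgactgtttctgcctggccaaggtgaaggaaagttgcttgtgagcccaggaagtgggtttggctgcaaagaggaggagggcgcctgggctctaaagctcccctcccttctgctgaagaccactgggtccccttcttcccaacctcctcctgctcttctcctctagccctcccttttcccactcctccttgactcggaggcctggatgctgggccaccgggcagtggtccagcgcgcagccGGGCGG
Grm7: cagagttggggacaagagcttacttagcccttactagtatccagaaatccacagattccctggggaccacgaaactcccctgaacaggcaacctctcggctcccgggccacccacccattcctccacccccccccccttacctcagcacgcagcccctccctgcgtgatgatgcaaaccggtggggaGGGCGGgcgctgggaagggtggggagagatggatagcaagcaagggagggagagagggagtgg
Grm2: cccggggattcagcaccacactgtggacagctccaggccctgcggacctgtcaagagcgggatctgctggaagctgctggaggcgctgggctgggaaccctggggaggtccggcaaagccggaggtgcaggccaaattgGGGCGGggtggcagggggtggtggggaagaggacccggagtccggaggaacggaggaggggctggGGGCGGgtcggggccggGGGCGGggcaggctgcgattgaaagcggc
GGGCGG, searched on both strands, matched 1 time in the Grm3 window, 1 time in the Grm7 window and 3 times in the Grm2 window, and 32.7% of all 32851 windows of this length held at least 1 match. TGACG (the cAMP response element core letters, in 17.8% of windows), TATAAA (the TATA box, 12.4%) and CACGTG (an E-box, 6.02%) were in none of these 3 windows, and none of the 4 motifs overlaps another in them. Bases G and C made up 62.4% of the Grm3 window, 62.0% of the Grm7 window and 71.2% of the Grm2 window, against a median of 52.4% over all windows. The windows of Grm8, at 3 listed starts, differed widely among themselves, with 2, 8 and 29 CpG dinucleotides. These matches are a description of the sequence and were not related to the expression values by any test.

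Levels of different receptors are compared per exon length, as FPKM, computed here from the counts, the exon length and TMM-scaled library sizes. In sham mice Grm5 was the most abundant member, at 29.8 ± 1.52 FPKM (SD, n = 3). Grm3 at 15.1 ± 0.809 and Grm2 at 14.1 ± 0.702 followed, and their ranges overlapped (14.2 to 15.8 and 13.6 to 14.9 FPKM). Grm7 came next at 8.85 ± 0.388 FPKM, then Grm4 at 2.82 ± 0.230 and Grm8 at 0.866 ± 0.141. No other pair of neighbours in this order overlapped in sham mice. In BCAS mice Grm5 was still highest at 20.01 ± 2.14 FPKM, Grm2 at 13.5 ± 3.27 and Grm3 at 12.4 ± 0.686 overlapped again, and Grm7 (6.54 ± 0.807), Grm4 (2.97 ± 1.05) and Grm8 (0.820 ± 0.172) kept their places without overlap.

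**Figure D1:**
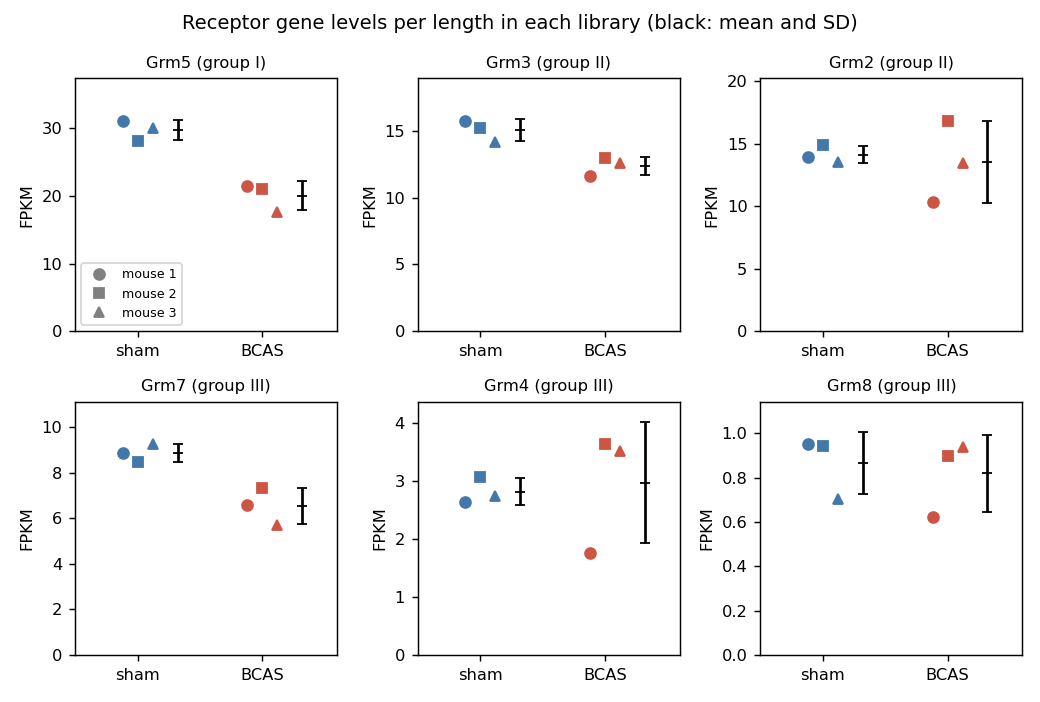
FPKM (y axis, linear from 0, own scale per gene) of the 6 receptor genes, with a symbol for each of the 3 sham and 3 BCAS libraries and black bars for mean and SD. The BCAS points of Grm5, Grm7 and Grm3 all lie below the sham points, and those of Grm2, Grm4 and Grm8 overlap with them.

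Lower levels in BCAS mice were found for 3 members, Grm5, Grm7 and Grm3, which passed an adjusted P of 0.05 (edgeR quasi-likelihood test, Benjamini-Hochberg adjustment over 18617 genes). Grm5 fell by 32.8%, Grm7 fell by 26.1% and Grm3 fell by 17.6%. No member was called higher, and Grm2, Grm4 and Grm8 were not called in either direction. Thus 3 of 6 members were called lower, against 13.2% of all tested genes called lower and 18.0% called higher (31.3% in either direction). In the same 3 members every BCAS mouse was below every sham mouse, which held for 22.7% of tested genes, while 25.3% lay wholly above and 48.0% showed no overlap either way. None reached the threshold for DEGs, which also asks for an absolute log2 fold change above 1 and was met by 0.999% of tested genes in the lower and 8.47% in the higher direction. In whole tissue, fewer cells of a type and less RNA per cell cannot be told apart.

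Grm5, the postsynaptic Gq-coupled receptor of group I, measured 31.1, 28.1 and 30.0 FPKM in sham mice 1 to 3 and 21.5, 21.0 and 17.6 FPKM in BCAS mice 1 to 3. These rest on the deepest counts of the family, 9634 to 10813 under sham and 5611 to 7148 under BCAS. The groups were well apart, and BCAS mouse 3 was the lowest. The log2 fold change was -0.57 (SE 0.096, 95% interval -0.79 to -0.36, edgeR adjusted P = 0.00259), and 7.203% of tested genes had a lower one.

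Grm7, the group III receptor anchored at presynaptic active zones, measured 8.84, 8.47 and 9.25 FPKM in sham mice and 6.57, 7.33 and 5.72 FPKM in BCAS mice. The groups did not overlap, and BCAS mouse 3 was again the lowest. The log2 fold change was -0.44 (SE 0.10, 95% interval -0.66 to -0.21, edgeR adjusted P = 0.0113). Without sham mouse 3 it was -0.41 and the call was lost (edgeR adjusted P = 0.0503, with 0.0012 to 0.0503 over all alternatives). The antisense Gm20387 gave 81, 89 and 70 counts in sham mice and 33, 60 and 25 in BCAS mice, beside 1666 to 1867 and 1050 to 1302 counts of Grm7, and its part in the result was not tested.

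Grm3, the group II receptor found on both neurons and astrocytes, measured 15.8, 15.2 and 14.2 FPKM in sham mice and 11.6, 12.96 and 12.6 FPKM in BCAS mice. Again no BCAS mouse reached the lowest sham mouse. Its log2 fold change was -0.28 (SE 0.083, 95% interval -0.47 to -0.093, edgeR adjusted P = 0.0314), the smallest of the 3 calls. This call was lost without sham mouse 1 (log2 fold change -0.25, edgeR adjusted P = 0.109), sham mouse 2 (-0.28, 0.0967), BCAS mouse 1 (-0.24, 0.0920) or BCAS mouse 3 (-0.30, 0.0529), and when library totals replaced TMM scaling (-0.20, 0.104) or the replicate number entered as a block (-0.28, 0.0780). Over all alternatives its adjusted P ran from 0.0233 to 0.109.

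Grm2, a presynaptic group II receptor known from dentate granule cells and their mossy fibers, measured 13.9, 14.9 and 13.6 FPKM in sham mice and 10.3, 16.9 and 13.4 FPKM in BCAS mice. The lowest and the highest value of all 6 libraries were both in BCAS mice. The log2 fold change was -0.062 (SE 0.15, 95% interval -0.41 to 0.28, edgeR adjusted P = 0.791), and its sign turned when library totals replaced TMM scaling (0.012) and without BCAS mouse 1 (0.097).

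Grm4, a presynaptic group III receptor best known from cerebellar granule cells, measured 2.63, 3.07 and 2.75 FPKM in sham mice and 1.76, 3.63 and 3.52 FPKM in BCAS mice. BCAS mouse 1 lay below all sham mice and the other BCAS mice above them. The log2 fold change was 0.077 (SE 0.24, 95% interval -0.47 to 0.62, edgeR adjusted P = 0.841). It was 0.34 without BCAS mouse 1 (edgeR adjusted P = 0.0795, with 0.0795 to 0.996 over all alternatives), -0.10 without BCAS mouse 2, -0.067 without BCAS mouse 3, and -0.0024 with all mice under limma-voom, so its sign rested on single mice and on the tool.

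Grm8, the group III receptor of perforant path terminals, was the least abundant member, at 0.951, 0.943 and 0.704 FPKM in sham mice and 0.622, 0.898 and 0.939 FPKM in BCAS mice. Its libraries held 200 to 319 counts, all well above the limit of 3 counts taken as detection. The groups overlapped, with a log2 fold change of -0.080 (SE 0.20, 95% interval -0.52 to 0.36, edgeR adjusted P = 0.790), which was 0.083 without BCAS mouse 1. For Grm2, Grm4 and Grm8 the intervals leave room for a fall as large as that of Grm3.

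**Figure D2:**
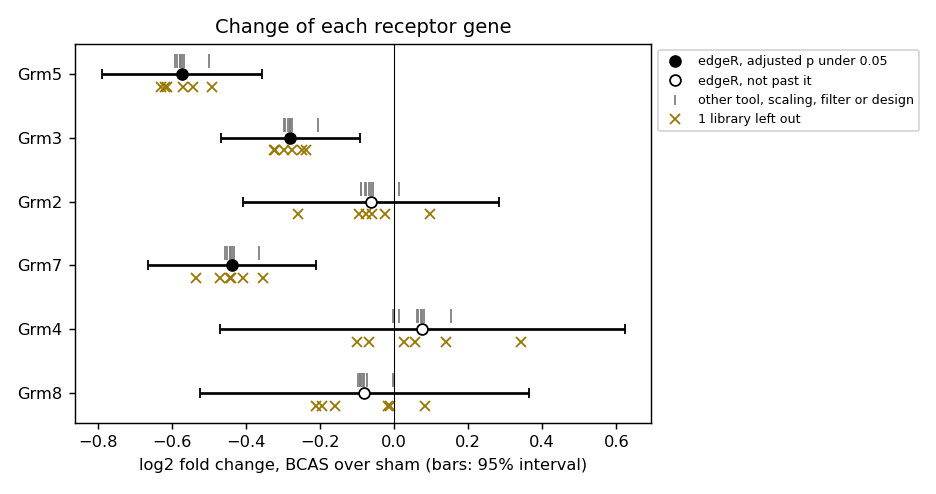
Log2 fold change (BCAS over sham) of each receptor gene, with a 95% interval derived from the edgeR test. Grey ticks mark other tools, scalings, filters or designs, and crosses mark fits without 1 library. The intervals of Grm5 (-0.79 to -0.36), Grm7 (-0.66 to -0.21) and Grm3 (-0.47 to -0.093) lie below 0, and those of Grm2, Grm4 and Grm8 include it.

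The spread among mice also differed between members. The coefficient of variation of Grm3 was 5.37% in sham and 5.53% in BCAS mice, whereas that of Grm4 was 8.16% and 35.3%, and that of Grm2 4.96% and 24.1%. Grm5 (5.09% and 10.7%), Grm7 (4.38% and 12.3%) and Grm8 (16.2% and 21.0%) lay between these in BCAS mice, while in sham mice Grm7 had the lowest and Grm8 the highest value of the 6. BCAS mouse 1 was the lowest BCAS mouse for Grm2, Grm3, Grm4 and Grm8. The 5 dentate granule markers did not share an order over the BCAS mice. Prox1 and C1ql2 were highest in BCAS mouse 1 (116 and 136 CPM, counts scaled to library size) and lowest in BCAS mouse 2 (58.3 and 54.6 CPM). Dsp (5.34 CPM) and Tdo2 (1.92 CPM) were also lowest in BCAS mouse 2. Calb1 was highest in BCAS mouse 2 (109 CPM, against 75.9 in BCAS mouse 1 and 63.6 in BCAS mouse 3). Calb1, Dsp and Tdo2 were below every sham mouse in all 3 BCAS mice. The choroid plexus gene Ttr ran from 23.7 CPM in BCAS mouse 2 to 5461 CPM in BCAS mouse 1, and from 38.1 to 3773 CPM in sham mice. The part of either in the spread of the receptors was not tested.

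Summed over the 6 genes, receptor RNA was 73.3, 70.8 and 70.5 FPKM in sham mice and 52.4, 62.7 and 53.8 FPKM in BCAS mice, a mean lower by 21.3% (percent change -21.3) with no overlap. The group II pair summed to 29.2 ± 1.27 FPKM in sham and 26.0 ± 3.93 in BCAS mice (SD, n = 3), and the groups overlapped. The group III trio summed to 12.5 ± 0.141 and 10.3 ± 1.46 FPKM, without overlap. Grm5 made up 42.5, 39.8 and 42.6% of the summed receptor FPKM in sham mice and 41.0, 33.5 and 32.6% in BCAS mice, and Grm2 made up 19.0, 21.1 and 19.3% and then 19.7, 26.9 and 25.0%. For no member were the FPKM shares of the 2 groups free of overlap. As shares of summed CPM, without the exon length, those of Grm3 did not overlap (8.74 to 9.56% under sham and 9.61 to 11.05% under BCAS).

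**Figure D3:**
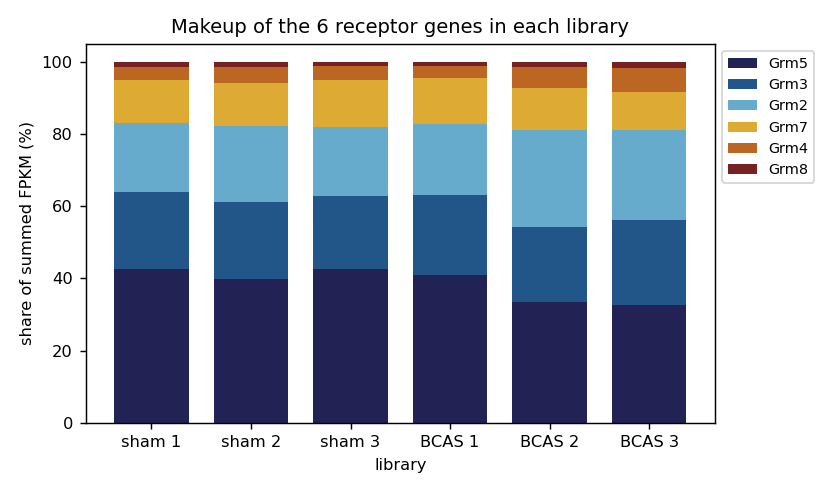
Stacked bars show the share of the summed FPKM of the 6 receptor genes taken by each gene, in percent, for each library. Grm5 takes 39.8 to 42.6% of the sham sums and 32.6 to 41.0% of the BCAS sums.

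Ratios between members were compared within each library, which removes the scaling of the library. Of the 15 pairs, 1 showed no overlap between the groups, Grm3 over Grm5. Its log2 FPKM ratio was -0.98, -0.89 and -1.08 in sham mice and -0.88, -0.70 and -0.48 in BCAS mice, a difference of 0.30. The two-sided exact permutation P was 0.1, the smallest that 3 mice against 3 allow, and the smallest adjusted P over the 15 pairs was 0.545. No pair could pass 0.05 in this design, so whether the members fell by unequal amounts cannot be decided by this test. Grm5 over Grm7 differed by -0.13 (exact permutation P = 0.2).

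Markers of cell types differed between the groups as well. Of 6 general neuronal markers 4 were lower and none higher, with a median log2 fold change of -0.58, and their summed level was 5595 to 6047 CPM for sham and 3226 to 4668 CPM for BCAS. BCAS mouse 3, the lowest for Grm5 and Grm7, also had the lowest mean log2 CPM of this list, 8.59, beside 8.84 and 9.11 in the other BCAS mice. Over all tested genes 13.2% were called lower and 18.0% higher. The count of neuronal markers called lower was 2 without any 1 of the sham mice or BCAS mouse 1, and 6 without BCAS mouse 2. Of 5 markers of CA1 pyramidal cells 4 were lower (median -1.56, summed level 629 to 783 CPM and 274 to 396 CPM). Of 5 dentate granule markers 3 were lower (median -0.87, 339 to 411 and 230 to 345 CPM), and of 9 interneuron markers 6 were lower (median -0.46, 1360 to 1529 and 966 to 1136 CPM). Astrocyte markers were higher in 5 of 6 cases (median 0.57, 1460 to 1516 and 2226 to 2363 CPM), and microglial markers in 7 of 7 (median 2.73, 303 to 315 and 1789 to 2875 CPM). Without sham mouse 1 or 2 the astrocyte count was 3, and the microglial count was 7 without any 1 mouse. Of the dentate granule markers 2 were called without sham mouse 1 or 2, and of the oligodendrocyte markers 1 was higher without BCAS mouse 2. Markers of oligodendrocytes were called in 0 of 6 cases (median 0.13, 5092 to 6256 and 5840 to 8796 CPM) by edgeR, those of oligodendrocyte precursors were higher in 2 of 4 (0.35, 284 to 316 and 326 to 392 CPM), those of endothelium in 3 of 5 (0.41, 232 to 255 and 305 to 339 CPM, and 5 of 5 with library totals), and those of choroid plexus in 0 of 5 (0.88, 70.8 to 4082 and 40.4 to 5924 CPM). None of these markers was at 0 in any library, so the CA1 and dentate markers that define hippocampal tissue were present throughout. The part of these differences in the fall of the receptors was not tested.

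The receptors were also set against 5 of the marker lists within a library (neuronal, CA1 pyramidal, dentate granule, interneuron and astrocyte). The measure was log2 of the receptor CPM minus the mean log2 CPM of the list. Against the neuronal list Grm5 stood at -1.14 ± 0.11 in sham and -1.17 ± 0.16 in BCAS mice (SD, n = 3), a difference of -0.029 (exact permutation P = 0.8). Grm7 differed by 0.11 (exact P = 0.2) and Grm3 by 0.27 (exact P = 0.2) on this scale. Grm2 differed by 0.46 without overlap (exact permutation P = 0.1, the smallest possible). Its values were -3.25, -3.20 and -3.40 in sham mice and -3.18, -2.74 and -2.55 in BCAS mice. BCAS mouse 1 thus lay close to sham mouse 2. Against the CA1 list all 6 members were higher in every BCAS mouse, from 0.79 for Grm5 to 1.37 for Grm4. Against the astrocyte list all 6 were lower in every BCAS mouse, from -1.28 for Grm5 to -0.70 for Grm4, and Grm3 differed by -0.98. The lists themselves differed by -1.36 (CA1) and 0.70 (astrocyte) in mean log2 CPM. Any gene that fell less than the CA1 list, or rose less than the astrocyte list, would show the same directions. Against the interneuron list only Grm2 showed no overlap (0.41), with -0.076 for Grm5 and 0.058 for Grm7. Against the dentate granule list no member separated the groups (Grm2 0.73, exact P = 0.2, and Grm5 0.24, exact P = 0.7). Of the 30 ratios, members by 5 lists, 14 showed no overlap, while 48.0% of all tested genes showed none in their levels. The smallest adjusted P of the ratios was 0.214 by the exact permutation test, which cannot go below 0.1 before adjustment. These ratios place the receptors beside the lists and do not separate the number of cells from RNA per cell.

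**Figure D4:**
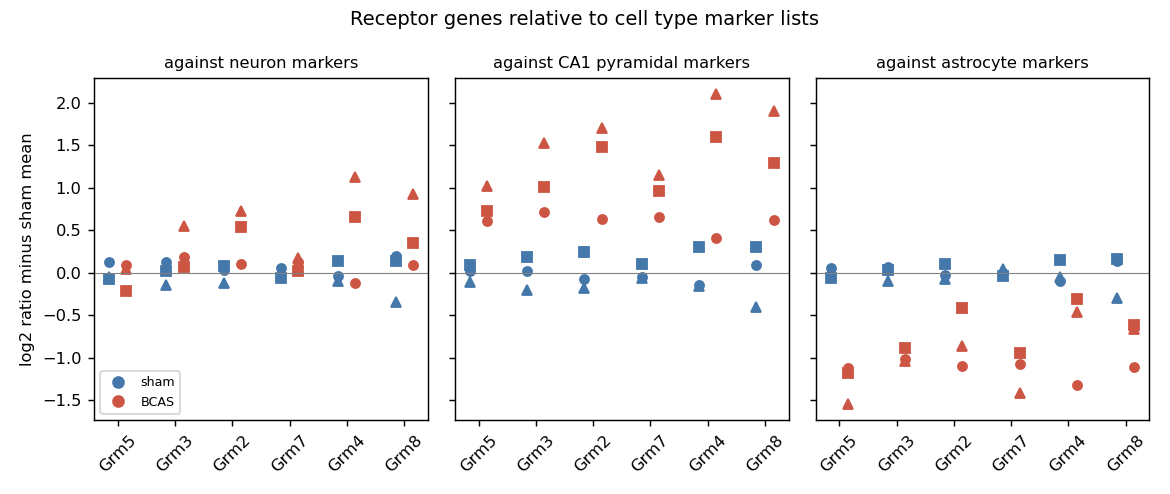
Log2 ratio of each receptor to a marker list, minus its sham mean (y axis), per library, for neuronal, CA1 pyramidal and astrocyte markers; circles, squares and triangles are mice 1, 2 and 3 of each group. The BCAS mean of Grm5 lies near 0 against the neuronal list (-0.029), above it against the CA1 list (0.79) and below it against the astrocyte list (-1.28).

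The partners of these receptors in signalling were described from 6 lists with 77 genes, all tested. These lists, too, were chosen with earlier results of these data known, which limits the comparison of their counts with all tested genes. Of these, 39 were lower, 13 higher and 25 not called by edgeR, with a median log2 fold change of -0.26 against 0.018 over all tested genes. Over all tested genes 13.2% were called lower and 18.0% higher, so 13 of 77 higher is near that background. DEGs among them were Rgs14 and Arc (lower) and Itpr2 (higher). The counts were 24 lower and 8 higher without sham mouse 1, 23 and 7 without sham mouse 2, and 26 and 8 without sham mouse 3. Over all tested genes the lower calls without these mice were 1449, 1412 and 1260, in place of 2463, and the higher calls 2453, 2609 and 2522, in place of 3356.

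Gq-coupled signalling, the path downstream of Grm5, fell in 10 of 13 genes and rose in 2, with a median log2 fold change of -0.58 (7 to 10 lower without any 1 mouse). Among all tested genes, 13.2% were called lower. Gnaq, the alpha subunit of Gq, went from 264 ± 3.62 CPM in sham to 186 ± 21.2 CPM in BCAS mice (log2 fold change -0.50, edgeR adjusted P = 0.00424). Plcb1, the phospholipase C that it activates in forebrain, fell from 221 to 145 CPM (-0.61, edgeR adjusted P = 0.00783), and Itpr1, the neuronal IP3 receptor, fell from 363 to 241 CPM (-0.59, edgeR adjusted P = 0.00273). The protein kinases C Prkca (-0.86) and Prkcb (-0.67), the diacylglycerol kinases Dgkb (-0.74) and Dgkz (-0.58), Dagla (-0.47), which makes the endocannabinoid 2-AG, and Gna11 (-0.25) were called lower too. The 2 of 13 genes called higher stand beside 18.0% of all tested genes. Itpr2, the IP3 receptor of astrocytes, went from 23.8 ± 2.80 to 49.3 ± 3.30 CPM (1.05, edgeR adjusted P = 1.63e-04), and Plcb3 went from 19.6 to 36.7 CPM (0.91, edgeR adjusted P = 0.00253). Plcb4 was not called (-0.042, edgeR adjusted P = 0.882).

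Gi/o-coupled signalling, used by the other 5 members, fell in 8 of 17 genes, rose in 2 and was not called in 7 (median -0.26), beside 13.2% of all tested genes lower and 18.0% higher. The lower count was 4 without sham mouse 2 or BCAS mouse 3 and 5 without sham mouse 1. Kcnj3, the GIRK1 channel opened by Gi/o beta-gamma subunits, had 168, 160 and 163 CPM in sham mice and 94.9, 97.1 and 85.1 CPM in BCAS mice. The groups were far apart (log2 fold change -0.83, SE 0.075, edgeR adjusted P = 1.01e-04). Its partner Kcnj6 (-0.67), the alpha subunits Gnai1 (-0.68) and Gnaz (-0.46), the beta subunit Gnb5 (-0.59) and the adenylyl cyclases Adcy1 (-0.47), Adcy2 (-0.49) and Adcy9 (-0.43) were also lower. The alpha subunits Gnai2 (196 to 329 CPM, 0.74, edgeR adjusted P = 6.57e-04) and Gnai3 (0.47, edgeR adjusted P = 0.00724) were higher. Gnao1, the most abundant alpha subunit in brain, was not called (-0.22, edgeR adjusted P = 0.145), nor were Gnb1, Gnb2, Adcy3, Adcy5, Adcy8 and Kcnj9.

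Scaffolds and partners of the receptors fell in 9 of 14 genes and rose in none (median -0.42), beside 13.2% and 18.0% of all tested genes. The count was 5 without any 1 of the sham mice. Homer1, which ties Grm5 to IP3 receptors, measured 155, 133 and 139 CPM in sham mice and 83.6, 95.5 and 63.2 CPM in BCAS mice. The log2 fold change of Homer1 was -0.82 (SE 0.14, edgeR adjusted P = 0.00281). BCAS mouse 3 was lowest for Homer1, as it was for Grm5, but also for Shank1, Shank3, Ncdn and the mean of the neuronal markers. Counts per gene do not separate the short, activity-induced form of Homer1 from the long ones. Tamalin, a scaffold of group I receptors, went from 54.6 ± 1.51 to 33.5 ± 1.84 CPM (-0.71, edgeR adjusted P = 2.59e-04). Elfn1, a postsynaptic protein that binds Grm7 across the synapse, went from 30.1 ± 1.86 to 20.7 ± 0.847 CPM (-0.54, edgeR adjusted P = 0.00309), and its relative Elfn2 from 151 to 114 CPM (-0.41, edgeR adjusted P = 0.0463). Ncdn (-0.72), Homer2 (-0.60), Grip1 (-0.47), Shank1 (-0.42) and Shank3 (-0.39) were lower as well. Pick1, which binds the tail of Grm7, was not called (-0.24, edgeR adjusted P = 0.148), and neither were Homer3, Shank2, Grip2 and Cyth2.

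Genes that end receptor signalling were mixed, with 3 of 11 lower, 2 higher and a median of -0.0021. Of all tested genes 13.2% were called lower and 18.0% higher, so 2 of 11 higher is near that background. Without sham mouse 2 the counts were 1 lower and 0 higher by edgeR, without sham mouse 1 they were 3 and 0, and without sham mouse 3 they were 1 and 1. Rgs14, a regulator of Gi/o signalling concentrated in CA2, fell from 107 to 45.2 CPM (log2 fold change -1.24, edgeR adjusted P = 0.0015). Rgs4 (-0.46) and Rgs7 (-0.45) fell, and Rgs2 (0.47) and Arrb2 (0.41) rose. The kinases Grk2, Grk3 and Grk5, the arrestin Arrb1, Rgs12 and Siah1a were not called.

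Among 12 genes that supply or clear the ligands glutamate and NAAG, 3 were lower and 5 higher (median -0.014), beside 13.2% and 18.0% of all tested genes. The higher count was 2 without sham mouse 2, sham mouse 3 or BCAS mouse 1 and 3 without sham mouse 1, and the lower count was 1 without sham mouse 1 or 3 and 2 without sham mouse 2. Slc17a7, the vesicular glutamate transporter VGLUT1 of hippocampal principal cells, went from 1379 ± 76.3 to 853 ± 234 CPM (-0.69, edgeR adjusted P = 0.0249). The neuronal transporter Slc1a1 (-0.75) fell too. The genes that rose were the astrocyte transporters Slc1a3 (581 ± 11.9 to 912 ± 6.85 CPM, 0.65, edgeR adjusted P = 8.61e-04) and Slc1a2 (2309 to 3066 CPM, 0.41), the glutamine synthetase Glul (0.34), the cystine-glutamate exchanger Slc7a11 (0.80) and Folh1. Folh1, the peptidase that splits NAAG, the peptide agonist of Grm3, went from 6.17 ± 1.19 to 8.91 ± 0.655 CPM (0.53, edgeR adjusted P = 0.0421). The NAAG synthetases Rimkla (-0.19) and Rimklb (0.098) were not called, nor were Slc17a6 and Slc17a8.

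Effectors of receptor-dependent long-term depression fell in 6 of 10 genes and rose in 2 (median -0.28), beside 13.2% and 18.0% of all tested genes. Without any 1 of the sham mice 3 were lower and 1 higher, and without BCAS mouse 3 there were 4 lower and 1 higher. Arc, an immediate early gene translated after group I activation, had 99.2, 166 and 143 CPM in sham mice and 42.7, 65.6 and 70.4 CPM in BCAS mice. No overlap was seen in spite of the wide sham values (log2 fold change -1.19, edgeR adjusted P = 0.00406). Cyfip2 (-0.54), Map1b (-0.50), the phosphatase Ptpn5 (-0.36) and Fmr1 (-0.21), the translational repressor FMRP, were lower. Cyfip1 (0.59) and the kinase Eef2k (0.32) were higher, and Mapk3 and Mtor were not called.

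**Figure D5:**
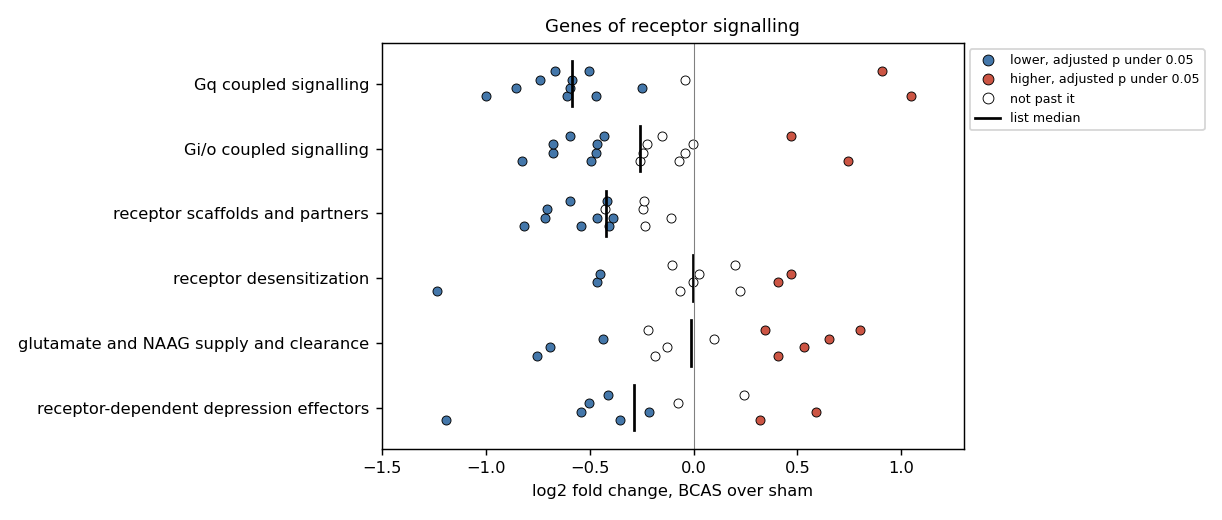
Log2 fold change (BCAS over sham) of the 77 genes in 6 lists of receptor signalling, coloured by the edgeR call, with open points for genes not called and a bar at each list's median. The medians lie at -0.58 for Gq-coupled signalling, -0.42 for scaffolds and -0.0021 for desensitization.

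The genes whose pattern over the 6 libraries was closest to that of a called member were found among 12416 genes by the root mean square difference of centred log2 CPM. For Grm5 these were Crim1 (0.0294), Abi2 (0.0295) and Hspa12a (0.0350). For Grm7 they were Ugcg (0.0143), Rtn3 (0.0212) and Morf4l2 (0.0237). For Grm3 they were Kcna2 (0.0214), Zfp141 (0.0286) and Ttbk2 (0.0369). With 6 libraries in 2 groups this likeness is a description of these values only.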

How the data were processed

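The authors trimmed paired-end reads (Trim Galore), aligned them to mm10 (HISAT2) and counted them with featureCounts. They deposited raw counts of 54752 genes per library, without normalization, and these counts are the only values used. The file headers name featureCounts 2.0.3 with GENCODE vM20, whereas the methods name version 1.6.3. Each mate counted as a read, without regard to strand, and multimapping reads were left out. Totals were 29652456 to 35607098 counts per library. A limit of 3 counts equals 0.0875 to 0.0995 CPM and covers counting error only.

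Groups and mouse numbers came from the labels. Inside the tables the BCAS columns carry the numbers 2 to 4, so the replicate numbers of BCAS mice, and any fit that uses them, rest on the labels. Symbols were matched for 54723 identifiers, including all 6 receptors and all 135 list genes. Genes passing filterByExpr (18617) were compared by edgeR 4.0.16 quasi-likelihood tests with TMM scaling in R 4.3.3, without covariates, and adjusted by Benjamini-Hochberg. The common biological coefficient of variation was 0.161. FPKM was computed from counts, merged exon length and TMM library size. Marker ratios used a pseudocount of 0.05 CPM. The steps were run on simulated data with 100 genes changed per fold size, whereas 5819 genes were called in these data. The outcome of that run is not reported here and is not used as support. No pair of libraries agreed within sampling noise (chi-square per degree of freedom at least 12.9). The named genes are the 6 receptors, the written list genes (some of which are counted with their list but not reported here by name) and the 3 closest genes by pattern, with a mean of at least 5 CPM, for each called receptor. The members and lists were chosen with earlier results of these data known. Upstream sequences are from RefSeq (GRCm38.p6), which gave windows for 4 members (not for Grm4 and Grm5). Alternatives were DESeq2 1.42.0, limma-voom (limma 3.58.1), RLE scaling, library totals, other filters, halved counts, a replicate block and leaving out each mouse.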

Additional observations from a re-analysis of the deposited data

How the results depend on the processing

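Grm5 was called lower under all 14 alternatives (log2 fold change -0.63 to -0.49, edgeR, DESeq2 or limma adjusted P from 2.81e-07 to 0.0181), Grm7 under 13 and Grm3 under 8, while Grm2, Grm4 and Grm8 were called under none. Leaving out 1 mouse gave -0.54 to -0.35 for Grm7 (lost without sham mouse 3), -0.32 to -0.24 for Grm3 (called in 2 of 6 cases, adjusted P 0.0233 to 0.109 over all alternatives), -0.26 to 0.097 for Grm2, -0.10 to 0.34 for Grm4 and -0.21 to 0.083 for Grm8. Library totals in place of TMM moved the median of all genes from 0.018 to 0.095, gave Grm3 -0.20 (not called) and turned Grm2 to 0.012, and limma-voom turned Grm4 to -0.0024. Leaving out 1 mouse gave 2 to 3 receptor genes called lower, 23 to 41 pathway genes lower and 7 to 13 higher. Each of these fits had fewer samples, and the cause of these and the other shifts was not tested. The block gave 2 of 12 ligand genes higher, and 3 of 10 depression effectors lower and 1 higher. Library totals also gave 5 of 17 Gi/o genes, 5 of 14 scaffold genes and 3 of 10 depression effectors lower, against 8, 9 and 6. All pathway lists together then had 28 genes lower and 15 higher, against 39 and 13. Among all tested genes this scaling gave 1788 lower and 3859 higher, in place of 2463 and 3356.

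With the replicate number as a block, Grm5 was -0.58 (edgeR adjusted P = 0.00896), Grm7 -0.44 (0.0331) and Grm3 -0.28 (0.0780, not called), and 1750 genes in place of 2463 were lower over all tested genes. With mice numbered by the labels (the BCAS columns carry 2 to 4), the residuals of same-numbered libraries correlated at 0.036, -0.314 and -0.158. Of the 3 sham libraries 1 correlated best with its own number. These values show no sign of pairs by number, but 3 mice per group cannot exclude them. Halving the counts, since mates were counted separately, changed no receptor call.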
